A study of Arabidopsis thaliana with 12 samples.

Results

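The lowest dose of cycloheximide (CHX) in a dose series, 1 µM, was compared with 0 µM in seedlings of Arabidopsis thaliana. The comparison takes the 3 libraries labelled CHX 1 µM and the 3 labelled CHX 0 µM, which are 6 of the 12 libraries of the series, and all 12905 genes of the deposited count table. The plants were 2-week-old wild type of the ecotype Col-0. They were rested in water and moved to wells holding CHX at 0, 1, 10 or 100 µM. There they were kept for 2 h in light of 30 µE before RNA was taken from whole seedlings. These facts and the doses come from the labels. The study's own list of data records ties this record to light-shifted seedlings of the flu mutant and gives another record for CHX, and the labels were followed here. Every group shared this genotype, age, rest, light and time, and the groups differed in dose alone as far as the labels tell. No label ties a replicate to a culture of its own, so p-values measure the spread between these samples, which may be technical. In RNA of whole seedlings, fewer cells of a type and less RNA per cell cannot be told apart.

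CHX binds the large subunit of cytosolic ribosomes and halts elongation, whereas ribosomes of plastids and mitochondria are not its target. When translation stops, short-lived proteins are not replaced, and transcripts of early response genes are known to accumulate under CHX in many organisms. Arabidopsis also has a retrograde pathway from mitochondria to the nucleus, in which membrane-bound NAC factors act on a promoter sequence called the mitochondrial dysfunction motif, found upstream of the alternative oxidase gene AOX1A. Glutathione transferases, UDP-glycosyltransferases (UGTs), and MATE and ABC transporters conjugate and export foreign or toxic small molecules.

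RNA was counted at 3′ ends by bulk MARS-seq, and total counts were 1073063 to 2036594 in the 0 µM libraries and 2317260 to 2564533 in the 1 µM libraries. The unit of level is CPM, the count after every library was brought to the same scaled total, and a sum of 3 counts over a group corresponds to 0.43 CPM at 0 µM and 0.358 CPM at 1 µM. A gene was called when its adjusted p (edgeR quasi-likelihood test, Benjamini-Hochberg over 12905 genes) was under 0.05 and its change at least 2-fold. Shoot markers were abundant in all 6 libraries, with 6 of 6 measured and a summed level of 15261 to 17001 CPM at 0 µM and 9339 to 12851 CPM at 1 µM, and none was called by edgeR or DESeq2, although 5 of the 6 had an unadjusted p under 0.05. Of 11 root markers 10 were measured (124 to 182 CPM summed at 0 µM and 90.0 to 135 CPM at 1 µM), with EXPA7, antisense to AT1G12570, called higher and PRP3 lower. The call of EXPA7 was lost without replicate 1 or 3 at 0 µM or replicate 3 at 1 µM (adjusted p up to 0.085). The 4 seed storage markers are not in the table. Replicate 3 at 1 µM stood apart from the other libraries of its dose: count variance against it was 11.4 and 12.5 times sampling noise, compared with 3.72 between replicates 1 and 2.

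At 1 µM, 1748 genes were called higher (13.5% of those tested) and 403 lower (3.12%). The median change of all genes was 0.02 on the log2 scale, that of the called rises 2.26 and that of the called falls −1.35. Rises were also larger: 566 genes rose and 39 fell by more than 8-fold, and 137 rose by more than 32-fold. The libraries of the groups did not overlap for 1724 of the 1748 rises and 354 of the 403 falls, whereas groups did not overlap for 38.9% of all genes. Of the counts in a library, the genes called higher took 7.30%, 7.09% and 8.85% at 0 µM and 34.3%, 33.9% and 41.3% at 1 µM. The genes called lower took 4.26%, 3.87% and 3.61% at 0 µM and 1.40%, 1.38% and 1.06% at 1 µM. Among the called rises, replicate 3 had the highest of the 1 µM levels for 71.5%, against 37.2% of all genes, and without that library 1550 genes were called higher and 241 lower. The split of 81.3% rises among called genes depends on scaling. With libraries scaled by total counts, 1355 genes were higher and 1249 lower (52.0% higher), and the median of all genes moved to −0.31. With 10 reference genes as the scale, 1351 were higher and 1100 lower (55.1% higher), with a median of −0.29. Of these 10 genes 2 were themselves called lower, ACT2 among them. Together the 10 averaged 0.959% of counts at 0 µM and 0.946% at 1 µM.

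**Figure D1:**
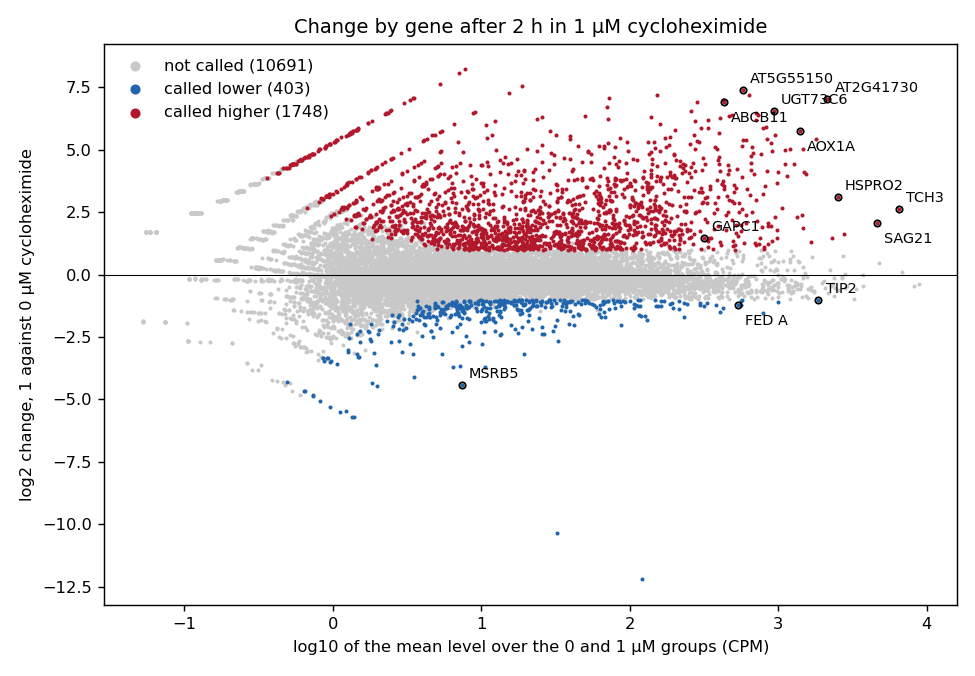
Log2 change of each gene at 1 against 0 µM CHX (vertical axis) by its mean level over both groups (horizontal axis, log10 CPM). Red points are the 1748 genes called higher, blue the 403 called lower and grey the genes not called; 63 genes with 0 counts in both groups are not drawn. The rises spread over all levels and reach over 7 on the log2 scale, and the 2 isolated blue points are plastid genes with nearly all counts in 1 library.

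The 12 largest rises included 3 genes of export and 1 of conjugation, beside genes of other or unknown function. AT2G41730, annotated as a calcium-binding site protein, had 26.4, 28.2 and 42.5 CPM at 0 µM and 3908, 3910 and 4903 CPM at 1 µM. All 3 treated libraries lay far above the controls, and the log2 change was 7.03 ± 0.26 (adjusted p = 4.0e-14, edgeR), or 131-fold. AT5G55150, an F-box protein related to SKIP23, went from 5.08, 7.52 and 8.50 CPM to 984, 962 and 1497 CPM, with a log2 change of 7.38 ± 0.29 (adjusted p = 6.5e-14, edgeR), the largest by the rule for named genes. The uncharacterized gene AT5G24640 had 6.36, 7.52 and 12.1 CPM and then 1206, 1190 and 1406 CPM (log2 change 7.20 ± 0.30). Among exporters, the MATE gene AT2G04050 had 7.31, 4.39 and 7.60 CPM at 0 µM and 842, 802 and 899 CPM at 1 µM, a log2 change of 6.98 ± 0.25. A second MATE gene, AT2G04070, had 1.59, 2.51 and 2.24 CPM and then 286, 271 and 352 CPM (log2 change 7.19 ± 0.29). ABCB11, an ABC transporter of the P-glycoprotein type, had 7.31, 4.39 and 8.94 CPM at 0 µM and 580.1, 771 and 1215 CPM at 1 µM (6.90 ± 0.31, adjusted p = 3.5e-13, edgeR), with replicate 3 the highest of the treated libraries.

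UGT73C6, which glucosylates flavonols and brassinosteroids, had 17.2, 16.3 and 25 CPM and then 2111, 1788 and 1611 CPM (log2 change 6.55 ± 0.29). It overlaps the antisense gene AT2G36792, and whether counting used strand is not given in the sources used here. The remaining 5 of the 12 largest rises were sks8, a relative of the cell wall protein SKU5 (log2 change 7.09), the lectin receptor kinase gene LECRKA4.2 (6.93), C2, a lipid-binding protein gene overlapping AT3G17970 on its strand (6.71), AT5G13210 of unknown function (6.55) and the pentatricopeptide repeat gene AT2G20720 (6.49), which has antisense neighbours AT2G20710 and AT2G07335. In all 12 the lowest treated library was above the highest control.

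The promoters of several of these genes share a sequence. Of the 12 largest rises, 6 held the mitochondrial dysfunction motif, searched on both strands as CTTGNNNNNCANG, in the 300 bases from 250 before to 50 after the RefSeq start (TAIR10.1), as did 1 of the 12 largest falls and 229 of 12830 promoters of measured genes (1.78%). The windows of AT2G41730 (chr2:17409120-17409419, + strand), AT5G55150 (chr5:22383343-22383642, − strand), AT2G04050 (chr2:1339419-1339718, − strand), ABCB11 (chr1:523286-523585, + strand) and AOX1A (chr3:7906271-7906570, + strand) are shown because they carry the motif in genes with very large rises, with each match in capitals.
AT2G41730: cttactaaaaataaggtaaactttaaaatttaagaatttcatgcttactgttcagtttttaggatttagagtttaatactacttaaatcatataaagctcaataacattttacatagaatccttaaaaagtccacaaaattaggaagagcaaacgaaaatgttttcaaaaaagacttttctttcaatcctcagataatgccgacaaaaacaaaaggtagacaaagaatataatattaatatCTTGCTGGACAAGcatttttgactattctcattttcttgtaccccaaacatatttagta
AT5G55150: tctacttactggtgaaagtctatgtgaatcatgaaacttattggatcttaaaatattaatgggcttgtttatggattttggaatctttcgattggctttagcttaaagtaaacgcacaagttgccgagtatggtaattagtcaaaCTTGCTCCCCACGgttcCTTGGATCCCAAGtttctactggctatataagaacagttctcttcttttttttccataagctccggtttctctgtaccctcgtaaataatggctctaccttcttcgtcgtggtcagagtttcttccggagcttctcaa
AT2G04050: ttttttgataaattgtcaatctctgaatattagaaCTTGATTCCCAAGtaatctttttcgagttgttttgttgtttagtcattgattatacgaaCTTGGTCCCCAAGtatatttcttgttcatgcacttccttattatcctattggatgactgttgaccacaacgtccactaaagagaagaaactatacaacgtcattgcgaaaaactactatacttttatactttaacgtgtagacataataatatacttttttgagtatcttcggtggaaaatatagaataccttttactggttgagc
ABCB11: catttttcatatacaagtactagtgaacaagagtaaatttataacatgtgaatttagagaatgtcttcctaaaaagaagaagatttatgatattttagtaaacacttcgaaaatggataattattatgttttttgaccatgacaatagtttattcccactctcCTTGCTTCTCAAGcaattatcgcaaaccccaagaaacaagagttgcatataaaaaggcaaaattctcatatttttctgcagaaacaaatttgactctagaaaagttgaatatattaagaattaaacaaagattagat
AOX1A: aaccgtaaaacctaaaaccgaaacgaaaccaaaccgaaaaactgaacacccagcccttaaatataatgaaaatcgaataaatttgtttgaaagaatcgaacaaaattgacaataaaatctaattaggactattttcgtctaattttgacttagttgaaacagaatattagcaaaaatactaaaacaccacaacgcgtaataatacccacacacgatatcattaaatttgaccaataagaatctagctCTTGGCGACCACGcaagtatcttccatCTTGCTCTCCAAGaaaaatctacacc
AT5G55150, AT2G04050 and AOX1A each hold 2 matches. In AOX1A the first begins 3 bases before the annotated start, and in AT2G41730 the match begins 9 bases before it. UGT73C6, AT5G24640 and CYP81D8 hold matches too. A match is a run of letters and was not tested as a binding site.

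**Figure D2:**
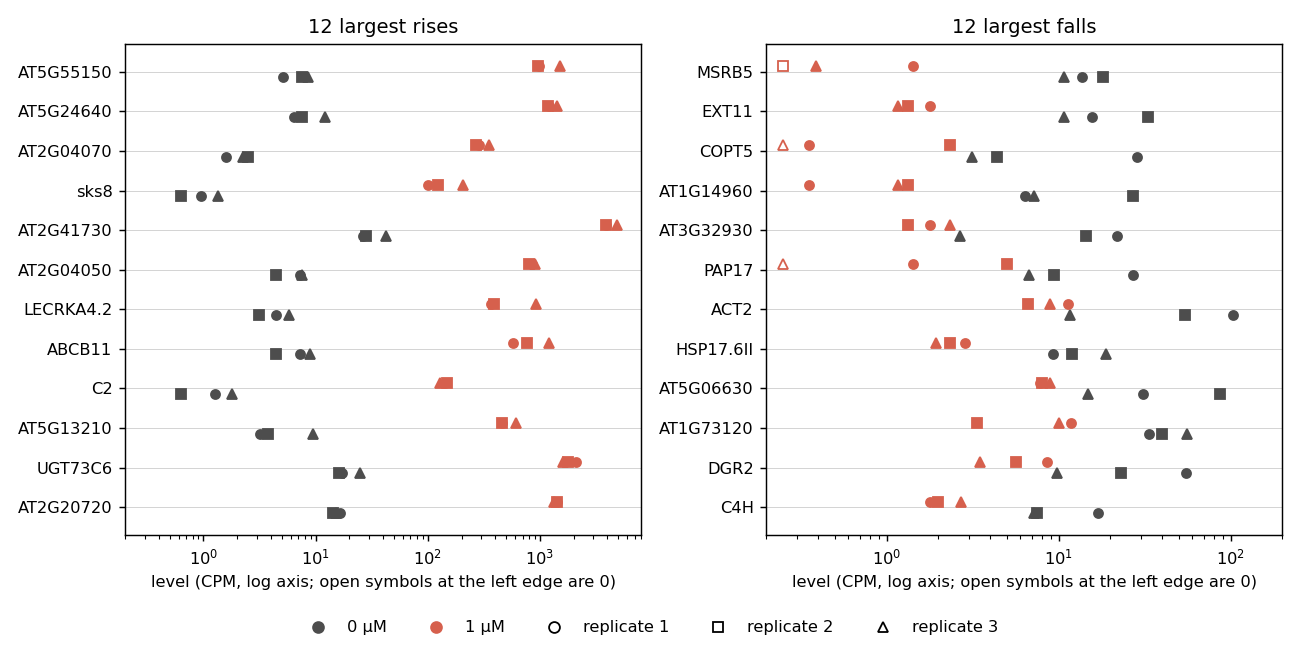
Level in each library (horizontal log axis, CPM) of the 12 largest rises (left) and the 12 largest falls (right), with 0 µM in grey, 1 µM in red and the symbol giving the replicate. The rises sit under 50 CPM at 0 µM and above 100 CPM at 1 µM, whereas several falls have one 0 µM library far above the other controls.

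Several called genes were at or near the floor in the controls, so their fold rests on few counts. AT3G12910, a NAC transcription factor gene, had 0, 1 and 0 counts at 0 µM and 69, 111 and 129 counts at 1 µM, a ratio of 257 with an exact 95% counting interval of 45.8 to 10195. AT4G27580, annotated as an SFH5-like phosphatidylinositol transfer protein, had 0, 0 and 1 counts and then 64, 95 and 96 counts (ratio 212, interval 37.8 to 8419). NDB4, one of the NAD(P)H dehydrogenases that bypass respiratory complex I, had 1, 0 and 2 counts and then 47, 75 and 73 counts (54.1, interval 18.3 to 265). The ratios of AT2G03230, antisense to AT2G03240, AT3G13500 and the lipase-like gene AT4G16820 were 85.8, 48.3 and 74.1. In all, 88 of the called rises had 0 counts at 0 µM and 218 had 3 or fewer. These intervals cover counting error only.

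Every measured gene of the mitochondrial retrograde list was called higher, 9 of 9, with a median log2 change of 5.76 (4.42 with genes at 0 counts set to their bound) compared with 0.02 over all genes. AOX1A, the alternative oxidase that passes electrons from ubiquinol to oxygen, had 56.9, 37.0 and 56.4 CPM at 0 µM and 2372, 2647 and 3233 CPM at 1 µM. The treated libraries were all above the controls, and the log2 change was 5.76 ± 0.24 (adjusted p = 1.5e-13, edgeR). Its paralogue AOX1D had 23.5, 16.3 and 40.2 CPM and then 1488, 1606 and 1807 CPM (log2 change 5.92 ± 0.29). BCS1, an ATPase of the outer mitochondrial membrane, had 8.90, 11.3 and 11.6 CPM at 0 µM and 725, 710.3 and 978 CPM at 1 µM (log2 change 6.26 ± 0.24). DIC2, a mitochondrial dicarboxylate carrier, had 21.9, 27.6 and 37.1 CPM and then 516, 606 and 724 CPM (log2 change 4.42 ± 0.23). All 4 genes kept the groups apart by more than 10-fold. The other 5 members called were NDB2, AT2G21640, UGT74E2, AT5G09570 and NAC13, the last a membrane-bound regulator of this pathway. The motif was present in the promoter window of 5 of the 9, beside 1.78% of all measured genes. The list is of a pathway described as acting on this motif, with AOX1A a member. The share is therefore not an independent result about the motif.

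Most measured genes of both conjugation lists were called higher. Of 9 UGT genes on the list 8 were higher, with a median of 4.13, and 9 of 13 glutathione transferases were higher, with a median of 2.16. DOGT1, which glucosylates the fungal toxin deoxynivalenol, had 55.0, 73.3 and 84.5 CPM at 0 µM and 2544, 2332 and 2117 CPM at 1 µM (log2 change 5.04 ± 0.23, adjusted p = 2.6e-13, edgeR). UGT74E2, a glucosyltransferase of indole-3-butyric acid, had 8.90, 10.7 and 14.3 CPM and then 746, 545 and 702 CPM, and its 3′ end is 96.6% identical to AT1G05675 over 119 bases, so reads could be split between them. UGT73B5 (log2 change 4.13 ± 0.22) overlaps AT2G15490 on its strand. The tau-class glutathione transferase GSTU12 had 8.58, 7.52 and 12.5 CPM at 0 µM and 288, 352 and 376 CPM at 1 µM (log2 change 5.13 ± 0.28), while GSTU9 had no count at 0 µM and 12.8, 15.3 and 18.7 CPM at 1 µM, at least 36.3-fold higher than the floor of 3 counts over the group. GSTU10, overlapped by AT1G74580 and AT1G74600, and GSTF6 changed by 2.57 and 1.86 on the log2 scale.

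By RefSeq product name, 31 of 91 UDP-glycosyltransferases were called higher (34.1%) and 2 lower, 10 of 31 MATE genes higher (32.3%) and 1 lower, and 26 of 92 cytochromes P450 higher (28.3%) and 6 lower. These shares stand beside 13.5% of all genes higher. ABC transporters gave 9 of 43 higher and 2 lower. The name patterns behind these families were written after values had been seen.

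The indolic defence list, which covers camalexin and indole glucosinolate metabolism, had 9 of 14 members higher, with a median of 2.45. The list and the 9 also include CYP81D8, which is described by its induction and not by a step of either pathway. CYP81D8, a P450 often induced by oxidative stress and xenobiotics, had 15.6, 16.9 and 18.8 CPM at 0 µM and 1311, 1357 and 1660 CPM at 1 µM (log2 change 6.40 ± 0.25, adjusted p = 6.5e-14, edgeR). The myrosinase-like enzyme gene PEN2 had 98.2, 84.6 and 128 CPM and then 789, 686 and 1013 CPM (log2 change 3.00 ± 0.22), and its partner transporter PEN3 changed by 2.41 ± 0.20. MYB51, a regulator of indole glucosinolates counted both here and on the MYB list, went from 19.7, 9.40 and 23.3 CPM to 114, 103 and 94.9 CPM (2.53 ± 0.24). Of 8 aliphatic glucosinolate genes measured, none was higher and CYP83A1 was lower, with 74.7, 124 and 135 CPM at 0 µM and 55.9, 53.3 and 48.2 CPM at 1 µM (log2 change −1.07). The fall of CYP83A1 was under 2-fold without replicate 2 at 0 µM (−0.96), replicate 3 at 0 µM (−0.86) or replicate 3 at 1 µM (−0.99).

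Of the 5 largest gains by absolute level, 3 were in genes already abundant at 0 µM. TCH3, a touch-induced calmodulin-like gene with antisense neighbours AT2G09220 and AT2G41105, had 1771, 1579 and 2094 CPM at 0 µM and 10321, 11608 and 11459 CPM at 1 µM (log2 change 2.62 ± 0.19, adjusted p = 3.4e-10, edgeR). SAG21, a late embryogenesis abundant protein overlapped on its strand by AT4G04125, had 1458, 1660 and 2185 CPM and then 7199, 7199 and 8052 CPM (2.08 ± 0.19). HSPRO2, an orthologue of a sugar beet nematode resistance gene, had 496, 415 and 657 CPM and then 4315, 3598 and 5540 CPM (3.10 ± 0.22). In each the groups were separated with little spread inside them. MO1, a monooxygenase, started lower, at 68.6, 93.4 and 84.5 CPM, and reached 3420, 3074 and 3986 CPM, a log2 change of 5.42 ± 0.24. AT2G41730, with its levels given above, was the other of the 5 that started low.

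Most measured members of the transcription factor lists were higher at 1 µM, beside 13.5% of all genes. Shares were lower over whole families. By RefSeq product name, 26 of 46 WRKY genes (56.5%), 30 of 67 AP2/ERF genes (44.8%) and 14 of 44 NAC genes (31.8%) were higher. None of these was called lower, and the name patterns were written after values had been seen. On the lists, WRKY factors, which bind W-boxes in defence genes, had 21 of 28 members higher with a median of 3.13 (2.85 with genes at 0 counts at their bound). WRKY33, needed for camalexin synthesis, had 59.1, 64.0 and 80.5 CPM at 0 µM and 1773, 1965 and 2681 CPM at 1 µM (log2 change 4.98 ± 0.24, adjusted p = 6.4e-13, edgeR). WRKY40 had 29.2, 21.3 and 43.8 CPM and then 529, 556 and 645 CPM (4.18 ± 0.24), WRKY53 changed by 3.77 and WRKY6 by 4.02. The first 3 have antisense neighbours (AT2G08965 and AT2G38480, AT1G80850, and AT4G23800).

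The C2H2 zinc finger repressors of the ZAT and AZF group had 9 of 11 members higher, with a median of 3.13. STZ, also called ZAT10, had 139.8, 148 and 198 CPM at 0 µM and 2447, 2860 and 3178 CPM at 1 µM (log2 change 4.13 ± 0.22). RHL41, also called ZAT12, went from 46.7, 47.0 and 64.4 CPM to 712, 814 and 1050 CPM (4.02 ± 0.22), and ZF2 and AT3G46080 changed by 3.87 and 3.67. The CCCH zinc finger and CAF1 deadenylase list was higher in 4 of 4 genes, led by SZF1 with 41.3, 45.1 and 47.9 CPM at 0 µM and 1270, 1078 and 1539 CPM at 1 µM (4.86 ± 0.20, adjusted p = 1.4e-13, edgeR). CZF1, CAF1b and CAF1a changed by 3.48, 2.99 and 2.29. CAF1 proteins shorten the poly(A) tails of messenger RNA.

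AP2/ERF factors had 17 of 30 members higher with a median of 1.79. TDR1 had 4.77, 4.39 and 4.92 CPM at 0 µM and 257, 265 and 423 CPM at 1 µM (log2 change 6.04 ± 0.28), and ERF6 had 30.5, 33.9 and 34.4 CPM and then 202, 280.0 and 312 CPM (3.01 ± 0.21). ERF13 changed by 3.30 and AT5G51190, antisense to AT5G51180, by 3.92. Stress NAC factors had 8 of 15 higher (median 1.99). ATAF2, overlapped by antisense AT5G08780, had 151, 137 and 238 CPM at 0 µM and 2824, 2730 and 3071 CPM at 1 µM (4.03 ± 0.22). Stress MYB factors had 7 of 10 higher and 1 lower, with MYB77 at 14.9, 12.5 and 17.9 CPM and then 95.4, 107 and 127 CPM (2.84 ± 0.20).

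Immunity and calcium sensor lists had 30% to 75.9% of their members higher, beside 13.5% of all genes. The list of pattern-triggered immunity receptors and signalling genes had 22 of 29 members higher with a median of 2.00. SYP122, a syntaxin of the plasma membrane, had 74.4, 77.7 and 113 CPM at 0 µM and 1154, 1377 and 2231 CPM at 1 µM (log2 change 4.17 ± 0.27), with replicate 3 highest. RBOHD, the oxidase behind the defence burst of reactive oxygen, had 37.5, 64.0 and 78.3 CPM and then 549.5, 568 and 793 CPM (3.42 ± 0.24), and PEPR1, a receptor of danger peptides, changed by 3.25 ± 0.23. The PUB and ATL ubiquitin ligases had 10 of 14 higher and 1 lower, among them CNI1 with 49.6, 43.9 and 76.5 CPM at 0 µM and 1632, 1647 and 1991 CPM at 1 µM (4.95 ± 0.23) and PUB23, antisense to AT2G35935 (4.44 ± 0.23). Cysteine-rich receptor-like kinases had 6 of 16 higher, and CRK2 changed by 2.33. Calmodulin-like calcium sensors had 3 of 10 higher, with CML37 at 11.4, 8.15 and 15.7 CPM and then 124, 140.3 and 223 CPM (3.76 ± 0.26).

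Hormone lists differed in the share of members called, to be read beside 13.5% of all genes higher and 3.12% lower. Ethylene synthesis had 4 of 7 genes higher and 1 lower, all 4 rises being 1-aminocyclopropane-1-carboxylate synthases, and ACS2 had 5.08, 4.39 and 8.50 CPM at 0 µM and 139, 129 and 300.3 CPM at 1 µM (log2 change 4.96 ± 0.34). ACS7 changed by 3.51 ± 0.33. Jasmonate synthesis and turnover had 10 of 20 higher. LOX4, a lipoxygenase, had 20.3, 18.2 and 30.0 CPM at 0 µM and 618, 627 and 1022 CPM at 1 µM (5.04 ± 0.26), LOX3 changed by 3.73, and the allene oxide cyclase genes AOC1 and AOC3 changed by 2.49 and 2.85. The JAZ and MYC2 list had 4 of 11 genes higher (36.4%), and 3 of the 11 under total counts or with reference genes as the scale. JAZ5 had 5.72, 10.0 and 13.4 CPM and then 69.4, 66.0 and 126 CPM (3.20 ± 0.30), while the call for JAZ10, antisense to AT5G02045, rested on a few counts and was lost in 4 of the 6 fits that left out 1 of the compared libraries.

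Salicylic acid genes had 6 of 13 higher. CBP60G, a regulator of its synthesis, had 28.3, 15.1 and 32.6 CPM at 0 µM and 283, 279.7 and 576 CPM at 1 µM (log2 change 3.87 ± 0.30), and EDS16, the isochorismate synthase, changed by 3.49 ± 0.35. EDS5, which exports isochorismate from plastids, changed by 3.49 and is antisense to AT4G39040. Of the auxin genes, 3 of 14 Aux/IAA and 3 of 4 GH3 genes were higher. IAA19 had 7.63, 7.52 and 5.37 CPM and then 34.9, 43.7 and 29.6 CPM (2.39 ± 0.23), and BRU6, a GH3 enzyme conjugating auxin to amino acids, changed by 2.97 ± 0.25. Abscisic acid and dehydration genes had 3 of 15 higher (20%) and 1 lower (6.67%), beside 13.5% and 3.12% of all genes. The balance turned with scaling, to 0 higher and 4 lower under total counts and 1 higher and 3 lower with reference genes. The one fall was RD22, at 60.4, 139.8 and 112 CPM and then 26.7, 39.7 and 29.2 CPM (−1.69 ± 0.26), and the calls of NCED3 and HAI2 were each lost without 1 of several libraries (NCED3 adjusted p up to 0.21 and HAI2 up to 0.078).

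**Figure D3:**
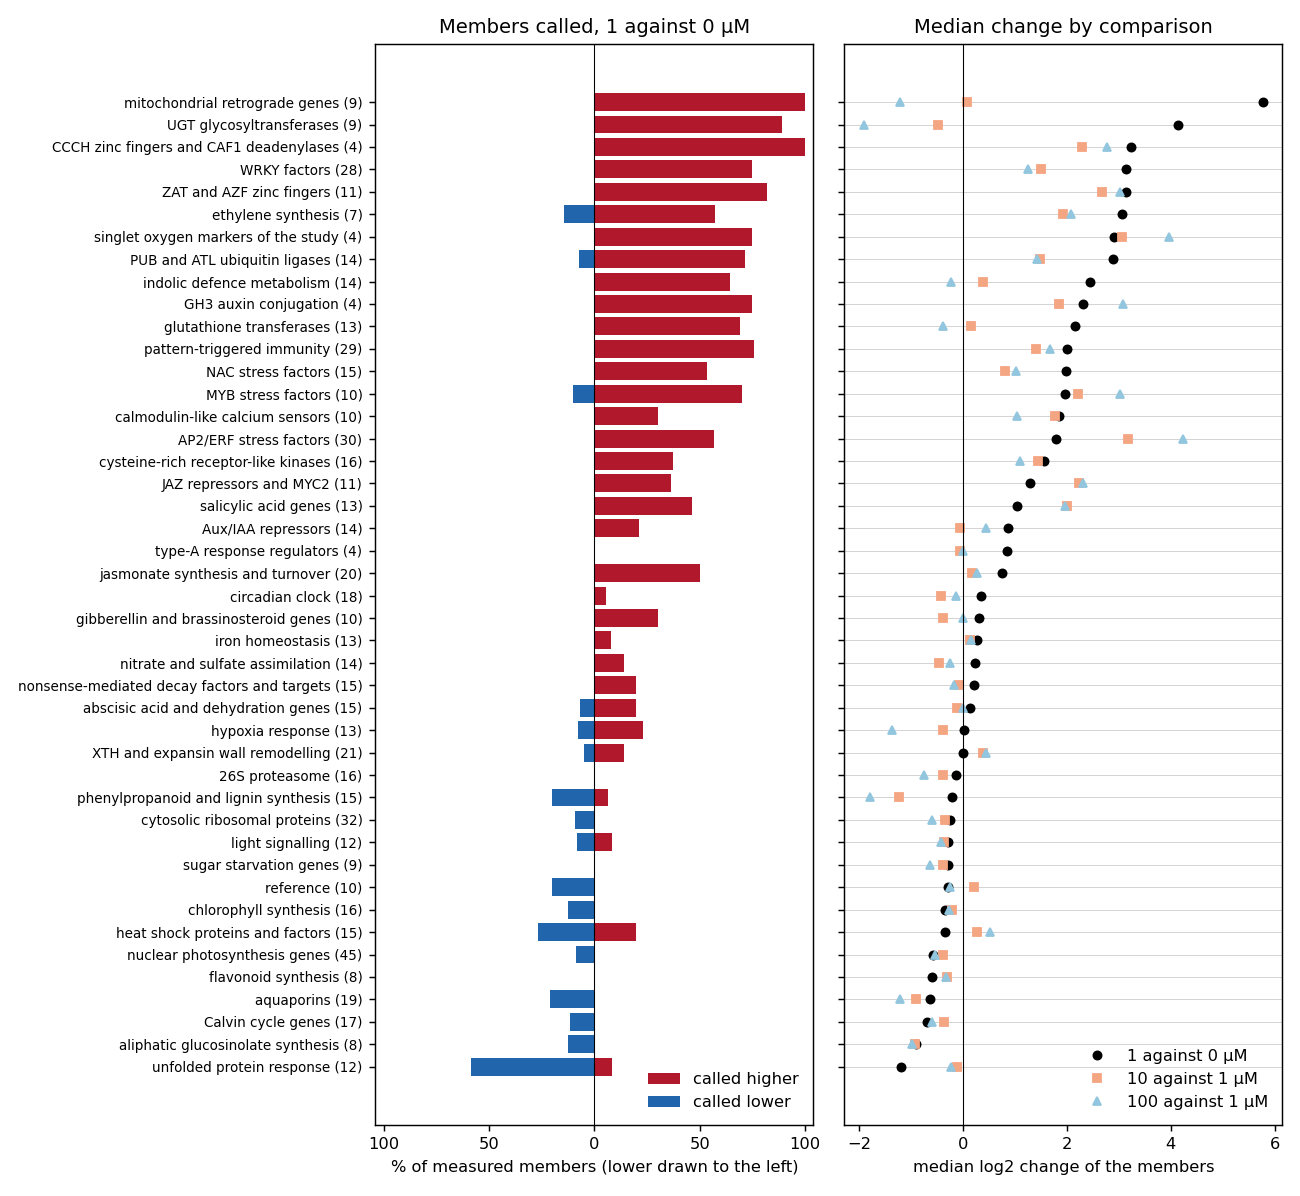
Gene lists with at least 4 measured members (number in parentheses), ordered by median change. Left, percent of members called higher (red, to the right) and lower (blue, to the left) at 1 against 0 µM; right, median log2 change at 1 against 0 µM (black circles), 10 against 1 µM (orange squares) and 100 against 1 µM (blue triangles). The mitochondrial retrograde list is highest with 9 of 9 members higher, and the unfolded protein response list is lowest with 7 of 12 lower.

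The unfolded protein response list was the one in which most members fell, with 7 of 12 lower and 1 higher and a median of −1.19. Calreticulins and calnexins are lectin chaperones of the endoplasmic reticulum. CRT1a had 227, 309 and 308 CPM at 0 µM and 121, 119 and 96.5 CPM at 1 µM (log2 change −1.32 ± 0.17, adjusted p = 3.7e-06, edgeR). CNX1 had 348, 437 and 545 CPM and then 186, 182 and 184 CPM (−1.27 ± 0.19), and CRT1b had 186, 248 and 256 CPM and then 96.8, 91.7 and 100.4 CPM (−1.25 ± 0.17). The treated libraries of all 3 lay below every control. The exception was BZIP60, the transcription factor gene whose messenger RNA is spliced by IRE1 under folding stress, which went from 0.953, 1.88 and 1.34 CPM to 31.3, 25.3 and 42.8 CPM (log2 change 4.61 ± 0.34, adjusted p = 4.9e-10, edgeR). Heat shock genes were mixed, with 3 of 15 higher (20%) and 4 lower (26.7%), beside 13.5% and 3.12% of all genes. The 3 rises were factor genes, HSFB2A (1.65), HSF A4A (2 counts summed at 0 µM, a ratio of 15.8 with a counting interval of 4.09 to 135) and AT-HSFB2B (1.37, antisense neighbours AT4G05910 and AT4G11670), and the small chaperone HSP17.6II fell from 9.21, 11.9 and 18.8 CPM to 2.85, 2.33 and 1.95 CPM (−2.44 ± 0.46).

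Among the largest falls, MSRB5, which repairs oxidised methionine, had 13.7, 18.2 and 10.7 CPM at 0 µM and 1.42, 0 and 0.389 CPM at 1 µM (log2 change −4.44 ± 0.64, adjusted p = 1.2e-05, edgeR). The extensin gene EXT11 had 15.6, 33.2 and 10.7 CPM and then 1.78, 1.33 and 1.17 CPM (−3.71 ± 0.60), and the F-box gene AT1G73120 had 33.4, 40.1 and 55.9 CPM and then 11.7, 3.33 and 10.1 CPM (−2.36 ± 0.32). All 3 genes had each treated library below each control. By product name, 7 of 32 extensins were called lower (21.9%) and 1 higher, beside 3.12% of all genes lower. AT1G14960 and AT5G06630 changed by −3.67 and −2.38, each with its highest control in replicate 2.

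The other 6 of the 12 largest falls had their highest level in replicate 1 at 0 µM, and each lost its call without that library. ACT2, an actin gene often used as a reference, had 103, 54.5 and 11.6 CPM at 0 µM and 11.4, 6.67 and 8.95 CPM at 1 µM, and its log2 change of −2.67 ± 0.63 became −1.79 with an adjusted p of 0.056. COPT5, a copper transporter gene with antisense neighbours AT5G20640 and AT5G03185, had 28.6, 4.39 and 3.13 CPM and then 0.356, 2.33 and 0 CPM, and its log2 change of −3.70 became −1.89 (adjusted p = 0.16). PAP17, AT3G32930, DGR2 and C4H gave adjusted p values of 0.14, 0.072, 0.096 and 0.057 without it. The first 3 of these have antisense neighbours (AT3G17800, AT3G32940, and AT5G03985 with AT5G25470). Of the 403 called falls, 44.7% had their highest control in replicate 1, against 32.9% of all genes, and 264 genes were called lower without that library. Also, 3 plastid genes were called lower on single libraries: ATCG01210 with 2297, 1 and 0 counts at 0 µM, ATCG00600 with 610, 0 and 0, and ATCG00400 with 0, 0 and 18, all at 0 counts in the 1 µM libraries. They were picked out after their values were seen.

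By absolute level, the largest losses were in abundant genes. TIP2, a water channel of the vacuolar membrane, had 3039, 2238 and 2195 CPM at 0 µM and 1246, 1364 and 1064 CPM at 1 µM (log2 change −1.02 ± 0.18), which was under 2-fold without replicate 1 at 0 µM (−0.83) or without replicate 1 or 3 at 1 µM (−0.99 and −0.91). LTP2, a lipid transfer protein, had 824, 1399 and 1289 CPM and then 375, 448 and 379 CPM (−1.55 ± 0.26). FED A, the photosynthetic ferredoxin, had 791, 851 and 616 CPM and then 349.8, 341 and 271 CPM (−1.23 ± 0.22). RBCS1B, a Rubisco small subunit, had 1338, 1448 and 1291 CPM at 0 µM and 751, 701 and 473 CPM at 1 µM (−1.08 ± 0.21) and was under 2-fold without replicate 3 at 1 µM (−0.88). AT3G47070, a thylakoid phosphoprotein antisense to AT3G47060, changed by −1.22 ± 0.25. In these 5 genes the groups did not overlap.

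Photosynthesis lists had medians below 0. Of 45 nuclear photosynthesis genes 4 were lower (8.89%, beside 3.12% of all genes) and none higher, with a median of −0.57, and of 17 Calvin cycle genes 2 were lower (11.8%), with a median of −0.70 and every member below 0. The 6 shoot markers, which are photosynthesis genes themselves, had a median of −0.58, and the part of the share of shoot tissue in these values was not tested. Under scaling by total counts, 12 of the 45 and 8 of the 17 were called lower. LHCB5 had 76.6, 61.4 and 13.4 CPM at 0 µM and 10.3, 10.7 and 10.5 CPM at 1 µM (−2.27 ± 0.55), with replicate 3 of the controls close to the treated libraries. CP12-2, a regulator of the Calvin cycle, had 385, 516 and 476 CPM and then 269, 206 and 143 CPM (−1.15 ± 0.28), and was under 2-fold without replicate 3 at 1 µM (−0.93). Chlorophyll synthesis had 2 of 16 lower, GUN4 (−1.39, antisense to AT3G59410) and CRD1 (−1.40, antisense to AT3G08795 and AT3G56950), and CRD1 lost its call without replicate 1 at 0 µM (−0.91). Aquaporins had 4 of 19 lower (21.1%) and none higher, with a median of −0.64, and 9 lower under total counts or 8 with reference genes. PIP1A had 551, 568 and 717 CPM at 0 µM and 242, 249.7 and 229.5 CPM at 1 µM (log2 change −1.35 ± 0.17), and PIP2B had 287, 300.3 and 341 CPM and then 119.9, 122 and 118 CPM (−1.37 ± 0.17).

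The xyloglucan endotransglucosylase and expansin list had 3 of 21 higher (14.3%) and 1 lower (4.76%), close to the 13.5% and 3.12% of all genes. The third rise, TCH4, and the fall, XTH6, each lost the call without 1 of several libraries (adjusted p up to 0.20 and 0.16). XTR6, which cuts and rejoins xyloglucan, had 55.3, 39.5 and 68.0 CPM at 0 µM and 547, 616 and 754 CPM at 1 µM (log2 change 3.55 ± 0.22), and XTH18 had 21.3, 15.1 and 8.94 CPM and then 138, 143 and 261 CPM (3.54 ± 0.45). The controls of both genes lay well below the treated libraries. Phenylpropanoid and lignin synthesis had 1 of 15 higher (6.67%) and 3 lower (20%). The cinnamyl alcohol dehydrogenase gene ATCAD4 had 64.2, 89.7 and 139.5 CPM at 0 µM and 34.5, 27.0 and 28.8 CPM at 1 µM (−1.69 ± 0.27). CYP98A3, the coumaroyl ester hydroxylase, with antisense neighbours AT2G40880 and AT2G09205, had 111, 106 and 136 CPM and then 61.2, 44.7 and 58.0 CPM (−1.11 ± 0.19), and was under 2-fold without replicate 3 at 0 µM (−0.95) or replicate 2 at 1 µM (−0.94). The one rise, 4CL1 (1.05 ± 0.24), which activates hydroxycinnamic acids and is antisense to AT1G51670, was under 2-fold without replicate 1 at 0 µM (0.90) or replicate 3 at 1 µM (0.75).

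Nitrogen, hypoxia, clock and light lists had 5.56% to 23.1% of their members higher, a range that holds the 13.5% of all genes. LBD38, a repressor of nitrate-responsive genes, had 223, 198 and 201 CPM at 0 µM and 893, 836 and 754 CPM at 1 µM (log2 change 2.00 ± 0.17), 1 of 2 genes higher among 14 of nitrate and sulfate assimilation (14.3%). Under total counts or with reference genes, 1 of the 14 was higher and 3 lower. Of 13 hypoxia response genes 3 were higher and 1 lower, and under total counts 1 was higher and 1 lower. ERF71, an ERF factor of the group stabilised under low oxygen, had 2.86, 4.39 and 6.26 CPM and then 139, 170.3 and 153 CPM (5.13 ± 0.25, adjusted p = 7.5e-13, edgeR), far outside the control range. The haemoglobin gene HB1 had 118, 364 and 456 CPM at 0 µM and 736, 814 and 489 CPM at 1 µM, and its log2 change of 1.13 was 0.76 without replicate 1 at 0 µM. Of 18 clock genes only CDF2 was called, at 16.8, 13.8 and 21.5 CPM and then 68.0, 57.3 and 82.5 CPM (1.98 ± 0.22). Of 12 light signalling genes HB-2, a homeobox factor of shade responses, was higher (1.88 ± 0.30) and the photoreceptor PHYA lower (−1.28 ± 0.36), and PHYA lost its call without replicate 1 at 0 µM (adjusted p = 0.11) or replicates 1 or 2 at 1 µM (0.071 and 0.059).

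None of 16 proteasome genes was called by edgeR or DESeq2 (median −0.14, 3 with an unadjusted p under 0.05). Of 32 cytosolic ribosomal protein genes 3 were lower (9.38%, beside 3.12% of all genes) and none higher (median −0.24). The falls were RPL23AA, RPS18C (antisense to AT4G09810) and RPL5B, and each lost its call without at least 1 library, with adjusted p up to 0.10, 0.068 and 0.22. Among factors and targets of nonsense-mediated decay, ERF1-1, a translation release factor (1.40 ± 0.19), and UPF3, a decay factor (1.26 ± 0.20), were higher. UPF3 was under 2-fold when total counts or reference genes set the scale. None of 8 flavonoid synthesis genes was called by edgeR, where 2 had an unadjusted p under 0.05 and DESeq2 called 1. None of 9 sugar starvation genes was called by either tool, with 3 at an unadjusted p under 0.05.

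Where 1 µM stood in the dose series was read from 2 comparisons that share the 1 µM libraries. Across all genes, 12.2% were higher and 4.98% lower at 10 against 1 µM, and 15.4% were higher and 9.38% lower at 100 against 1 µM. Of the 1748 genes higher at 1 µM, 728 (41.6%) were higher again at 10 µM and 77 (4.41%) lower. At 100 against 1 µM, 728 were higher, 233 (13.3%) were lower and 787 (45.0%) were not called. Since the choice of the 1748 used the 1 µM libraries, these counts are a description. Of the 12 largest rises, 11 were called lower at 100 than at 1 µM and none was called higher. The other, AT2G41730, averaged 4240 CPM at 1 µM and 2268 CPM at 100 µM. Its log2 change of −0.90 ± 0.19 was under the 2-fold threshold.

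ABCB11 averaged 855 ± 326 CPM (SD, n = 3) at 1 µM, 341 ± 41.3 CPM at 10 µM and 54.4 ± 9.40 CPM at 100 µM, and its log2 change at 100 against 1 µM was −3.97 ± 0.26 (adjusted p = 1.2e-10, edgeR). AT2G04050 averaged 848, 554 and 178 CPM at the same doses (−2.25 ± 0.19), and UGT74E2 664, 673 and 90.1 CPM (−2.91 ± 0.36). AOX1A, with 2751, 2900 and 1539 CPM, did not pass the 2-fold threshold at 100 against 1 µM (−0.84 ± 0.20). The median of the mitochondrial retrograde list was 0.08 at 10 against 1 µM and −1.22 at 100 against 1 µM, and that of the UGT list −0.49 and −1.91. The transcription factor lists had medians above 0 in both comparisons. STZ averaged 2828, 18130 and 23624 CPM at 1, 10 and 100 µM, and ERF6 265, 2490 and 5185 CPM. The AP2/ERF list had medians of 3.17 and 4.23 at 10 and 100 against 1 µM, compared with 1.79 at 1 against 0 µM. Inside the mitochondrial list, BCS1 and DIC2 were called higher again at 100 µM (log2 change 1.01 and 3.75), while AOX1D was lower (−1.38).

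**Figure D4:**
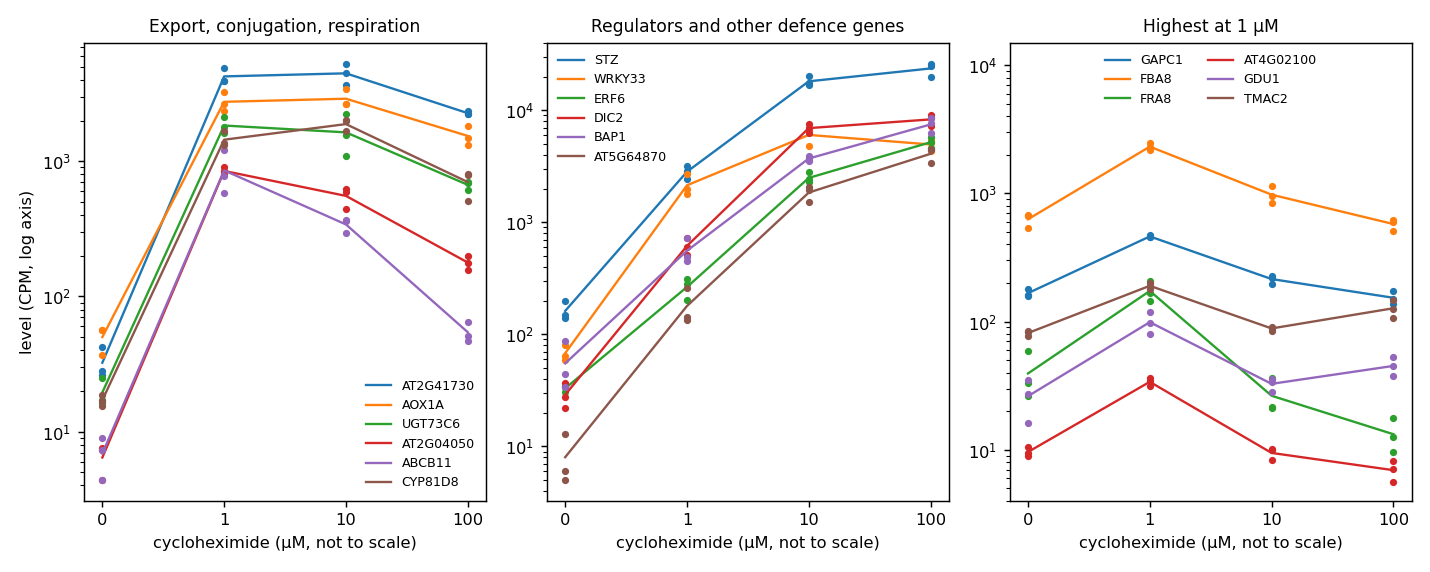
Level (vertical log axis, CPM) at 0, 1, 10 and 100 µM CHX of 18 genes, with points for the 3 libraries of a dose and lines through their means. Left, genes of export, conjugation and respiration with AT2G41730 have means at 100 µM below those at 1 µM. The left panel also draws the P450 gene CYP81D8, and its title covers neither this gene nor AT2G41730. Middle, regulators, other defence genes and the mitochondrial carrier gene DIC2, which the panel title does not cover, are higher at 10 than at 1 µM. Right, 6 genes named for a peak at 1 µM.

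A peak at 1 µM, with the level there above both 0 and 10 µM by at least 1.5-fold and an adjusted p under 0.05 for both together, was called for 72 genes (0.558%). Glycolytic genes of the cytosol were among the 8 named by smallest p. FBA8, a fructose-bisphosphate aldolase, had 534, 685 and 667 CPM at 0 µM and 2308, 2176 and 2469 CPM at 1 µM and averaged 978 CPM at 10 µM (log2 change 1.88 ± 0.18 and then −1.24 ± 0.17). GAPC1, glyceraldehyde-3-phosphate dehydrogenase, had 159.8, 160.5 and 179.8 CPM and then 459, 470.0 and 457 CPM and averaged 215 CPM at 10 µM (1.47 ± 0.16 and then −1.10 ± 0.16). FRA8, a glycosyltransferase of xylan synthesis antisense to AT2G28105, had 26.4, 33.2 and 58.6 CPM, then 168, 144 and 208 CPM, and averaged 26.4 CPM at 10 µM. The other 5 were AT4G02100, AT1G13360, TMAC2, GDU1, which promotes amino acid export, and AT5G49700, antisense to AT5G00615. The count of peaks depended on scale, with 171 under total counts, 44 under the DESeq2 size factor method (RLE) and 1 with reference genes. The reference genes averaged 0.946% of counts at 1 µM and 0.457% at 10 µM, so that scale raises levels at 10 µM. The count of peaks was also 29, 43 and 47 without replicate 3, 2 or 1 at 1 µM. No gene was called as a trough at 1 µM by edgeR under the scaling used for the levels given here, where 242 met the fold with an unadjusted p under 0.05, and 7 were with reference genes as the scale.

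The promoter motif shares differed along these lines. The mitochondrial dysfunction motif was found in 70 of 1748 promoters of genes higher at 1 µM (4.0%), 6 of 400 lower genes with a promoter read (1.5%) and 1.78% of all. Among the genes higher at 1 µM it was in 31 of the 233 that were lower at 100 µM (13.3%), 26 of the 787 not called there (3.30%) and 13 of the 728 higher again (1.79%). CGCGTT, the core of the rapid stress response element, which calmodulin-binding CAMTA factors recognise, was in 537 of all promoters (4.19%), 120 of the higher genes (6.86%) and 6 of the lower genes (1.5%). Here the genes higher again at 100 µM held it in 82 of 728 (11.3%) and those lower at 100 µM in 6 of 233 (2.58%). None of the 12 largest rises held it. In windows reaching 1000 bases before the start, the mitochondrial motif was in 7.39% of all genes, 18.9% of the genes that rose and were then lower and 8.65% of those higher again. The W-box core TTGAC, which overlaps the as-1 core TGACG where TTGACG occurs, was in 66.0% of higher genes, 44.2% of lower genes and 52.4% of all. These shares are descriptions, and letters in a window do not show that a factor bound there.

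DIC2 (chr4:12686209-12686508, + strand) and LOX4 (chr1:27308263-27308562, + strand), both higher at 1 µM and again at 100 µM, are shown for the CGCGTT core, in capitals.
DIC2: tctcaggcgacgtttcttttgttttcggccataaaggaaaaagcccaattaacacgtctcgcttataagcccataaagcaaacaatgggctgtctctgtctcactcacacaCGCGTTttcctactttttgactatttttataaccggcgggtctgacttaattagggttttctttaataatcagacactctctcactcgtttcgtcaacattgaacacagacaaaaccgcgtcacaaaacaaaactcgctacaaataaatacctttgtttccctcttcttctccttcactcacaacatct
LOX4: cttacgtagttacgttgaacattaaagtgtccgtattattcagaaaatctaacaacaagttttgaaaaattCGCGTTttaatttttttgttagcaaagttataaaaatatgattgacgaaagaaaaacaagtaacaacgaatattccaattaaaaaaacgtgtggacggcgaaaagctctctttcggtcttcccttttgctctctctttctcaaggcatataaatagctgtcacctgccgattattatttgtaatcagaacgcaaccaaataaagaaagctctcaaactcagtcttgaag

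**Figure D5:**
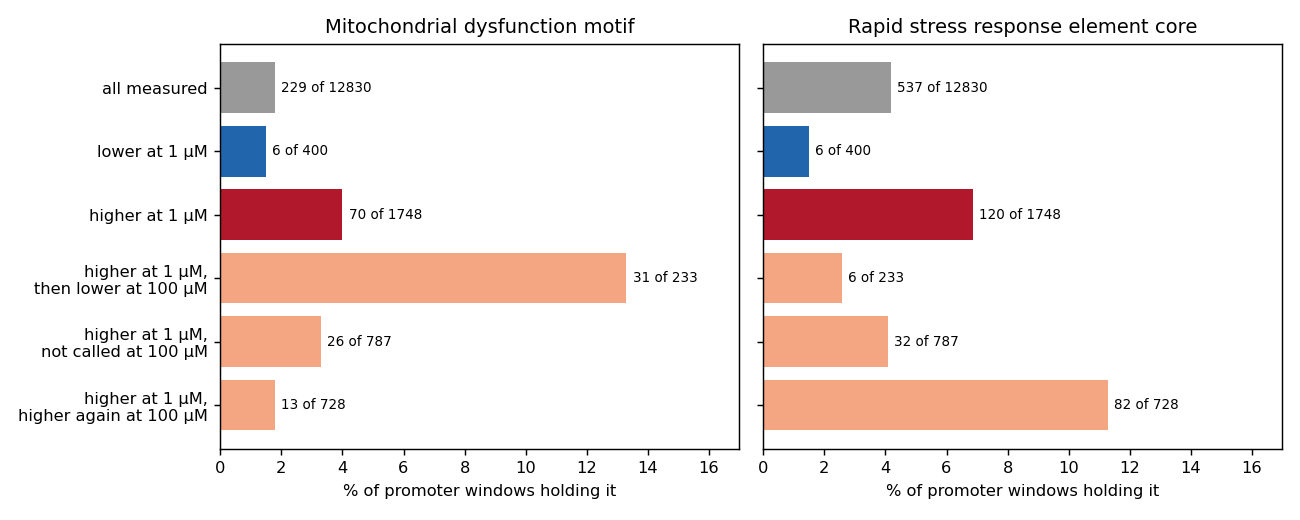
Percent of promoter windows (250 bases before to 50 after the RefSeq start) that hold the mitochondrial dysfunction motif (left) or the rapid stress response element core (right), in all measured genes and in groups of called genes, with counts beside the bars. The first is highest in genes that rose at 1 µM and were lower at 100 µM (13.3%), and the second in genes higher at 1 µM and again at 100 µM (11.3%).

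The study also names marker genes of reactive oxygen responses. It describes its singlet oxygen set as earlier found to respond to RNA oxidation and to arrest of translation. A rise of that set under CHX, which halts translation, is therefore not an independent result. Whether these samples had a part in the choice of the markers is not given in the sources used here. Of the study's 4 singlet oxygen markers measured, 3 were higher. AT5G64870, a membrane protein of the flotillin family, had 6.04, 5.01 and 13.0 CPM at 0 µM and 136, 142 and 259.5 CPM at 1 µM (log2 change 4.46 ± 0.33), and BAP1, an inhibitor of cell death, had 44.2, 33.9 and 87.2 CPM and then 494, 449 and 730.2 CPM (3.33 ± 0.28). AT5G13200 changed by 2.48 ± 0.26 and has a 3′ end close to that of AT3G61320 and AT3G59730. AT3G01830, antisense to AT3G01055 and AT3G01840, was near the floor in both groups and not called (adjusted p = 0.3, edgeR). Of the superoxide markers 2 were measured, and neither was called by edgeR or DESeq2, 1 having an unadjusted p under 0.05. FER1, an iron storage ferritin antisense to AT5G01595, had 314, 271 and 246 CPM at 0 µM and 508, 298 and 329 CPM at 1 µM (0.45 ± 0.19), and AT4G21870 changed by −0.06 ± 0.50.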

How the data were processed

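Polyadenylated RNA of whole seedlings was measured by bulk MARS-seq in 12 libraries, 3 at each of 4 CHX doses. Per the labels and the study's methods, the authors processed reads with bcl2fastq 2.17.1.14, cutadapt 1.8.3, STAR (Araport11 models) and HTSeq. The version of HTSeq, and whether counting used strand, are not given in the sources used here. The deposited counts are whole reads per gene for 12905 genes, all with a maximum of at least 6 counts over the libraries. The table is named as made with no filter on molecular identifiers, so copies from PCR may be counted. The deposited normalized signal is each library's count over a constant (relative deviation at most 5.2e-15), and the authors also deposited regularized log2 values. Only the counts were tested. Columns of the authors' own comparisons, which hold fold changes and p-values, were not used.

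Library scaling used TMM, a trimmed mean of log ratios. edgeR 4.0.16 in R 4.3.3 fitted all 12 libraries together by quasi-likelihood, each dose having its own mean. Calls needed an adjusted p (Benjamini-Hochberg) under 0.05 and a 2-fold change. Changes are log2 estimate ± SE, and per-library values are given in the order of replicates 1 to 3. Alternatives were other scalings, filterByExpr, a replicate block, only the 6 libraries compared, thinning to 1073063 counts, leaving out each library, other thresholds and DESeq2 1.42.0.

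Gene names, products, starts and promoter windows came from RefSeq TAIR10.1, in which 12831 identifiers matched and 74 did not. The gene models used for counting may differ from these. Neighbours that overlap a named gene are given with it. Named genes are the 12 largest rises and 12 largest falls among called genes with separated libraries, over 3 counts in each group and at least 10 CPM in the higher group, the 6 highest called genes with 3 or fewer counts at 0 µM, the 5 largest gains and 5 largest losses in CPM, up to 4 called members of each list by adjusted p, 8 peak genes, and the study's markers. The comparison, lists and members were chosen with earlier results of these data known. A named gene that met this rule is not reported here.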

Additional observations from a re-analysis of the deposited data

How the results depend on the processing

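Against the 1748 genes called higher and 403 called lower, no gene was called in the opposite direction under any alternative run. Calls of rises stayed within 1.5 times under every scaling, filter, left-out library and tool. Calls of falls rose to 1249 with total counts and 1100 with reference genes as the scale, and to 991 with no fold threshold, and fell to 211 at an adjusted p under 0.01. At 4-fold or more, 1094 genes were called, 1009 higher and 85 lower. Leaving out 1 of the compared libraries gave 241 to 408 falls and 29 to 82 peaks at 1 µM, against 72 peaks with all of them. Peaks numbered 44 under RLE scaling and 171 under total counts, and reference genes left 8 genes, 1 peak and 7 troughs. Leaving out replicate 1 at every dose, an alternative chosen after seeing the data, gave 1639 rises, 274 falls and 29 peaks. DESeq2 gave 1561 rises and 373 falls, with no adjusted p for 1507 genes. A fit of the 0 and 1 µM libraries alone gave 1666 and 439, and thinned counts 1557 and 357.

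Replicate numbers are shared between doses but nothing in the labels ties them to a culture. Deviations of same-numbered libraries correlated at 0.131, 0.0841 and 0.185 over 6715 genes, and those of differently numbered libraries at −0.149 to 0.0271. Each library was thus closest to its own number, and the reason was not tested. Since no label gives a pairing, the main fit did not treat them as pairs. The replicate block gave 1769 rises, 421 falls and 105 peaks.

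Of 174 named genes called, 174 kept the call under RLE, 158 with total counts, 161 with reference genes and 166 with DESeq2. The 12 largest rises kept theirs in every alternative run. Depth limits the precision of genes near 0.43 CPM at 0 µM, whose ratios have wide counting intervals.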

Other observations

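Genes called higher at 1 µM more often had a single exon: 579 of 1748 (33.1%), compared with 2288 of the 12813 measured genes with a RefSeq transcript (17.9%) and 22.2% of the genes called lower. Their median exon number was 2, compared with 4 over all measured genes and 3 in the genes called lower. Median transcript length was 1702 bases for the genes called higher, 1562 for those called lower and 1750 over all. Among the rises, the share with a single exon was 38.2% in those higher again at 100 µM, 32.2% in those lower at 100 µM and 28.7% in the rest. These are descriptions over genes, which are not independent replicates.

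Transcripts encoded in the organelles took 1.46%, 1.48% and 1.32% of counts at 0 µM and 1.02%, 1.10% and 1.18% at 1 µM. The groups did not overlap, and the exact permutation test (two-sided) gave p = 0.1, the smallest that 3 against 3 libraries allow.

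By product name, receptor-like kinases had 51 of 169 members called higher (30.2%) and 3 lower, a family pattern written after values had been seen. Genes annotated as ribosomal proteins of any compartment had 3 of 238 higher (1.26%) and 11 lower (4.62%), beside 13.5% and 3.12% of all genes. The median log2 change of the 238 was −0.32. The iron, clock and hypoxia lists had 1 of 13, 1 of 18 and 3 of 13 members called higher, and their medians of 0.27, 0.35 and 0.01 turned negative with total counts as the scale.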
